A study of Mus musculus with 6 samples.

Results

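Oxidative phosphorylation is carried out by 5 multisubunit complexes of the inner mitochondrial membrane, most of whose subunits are encoded in the nucleus. Genes were taken by symbol, as every row whose name starts with Ndufa, Ndufb, Ndufc, Ndufs, Ndufv, Uqcr, Cox4 to Cox8 or Atp5, or is Sdha, Sdhb, Sdhc or Sdhd. The rule found 92 of the 23420 genes in the table. Of these, 82 encode subunits or their tissue isoforms, and 10 are assembly factors or related proteins that share the name (Ndufaf1 to Ndufaf7, Cox7a2l, Atp5s and Atp5sl). The subunit genes comprise 36 of complex I, 4 of complex II, 8 of complex III, 19 of complex IV (with Ndufa4 and Ndufa4l2, whose products belong there) and 15 of complex V. The subunits encoded by mitochondrial DNA were not analysed here.

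RNA of the lens transition zone, where epithelial cells begin to become fibre cells, was sequenced in mouse embryos at E14.5. There were 3 control libraries, from embryos with the Le-Cre transgene, and 3 libraries called mutant here after their label, from embryos given as carrying Le-Cre, Etv4-/- and floxed alleles of Etv5 (Etv5fl/fl) and Etv1 (Etv1 fl/fl). All were of mixed strain background, and Le-Cre, which both groups carry, drives Cre in the surface ectoderm that gives rise to the lens, so that floxed genes stay intact in cells of other origin. Etv1, Etv4 and Etv5 form the Pea3 group of ETS transcription factors, and the comparison addresses which genes change with the labelled genotype. Etv1 stood at 45.4, 56.1 and 70.7 CPM in control and at 29.0, 21.6 and 28.9 CPM in mutant libraries, and it passed as lower (edgeR adjusted p = 0.0319). Etv5 stood at 245, 177 and 168 CPM against 116, 111 and 82.9 CPM and did not pass (adjusted p = 0.0503). Etv4 was not lower, at 2.92, 2.13 and 3.21 CPM against 4.92, 3.71 and 4.197 CPM (adjusted p = 0.427). RNA of all 3 genes thus remained in the mutant libraries, and since counts per gene can include exons outside a deleted part, these values do not check the labels. The labels call the control libraries wild type although their genotype includes the transgene, and do not give the number of embryos behind the libraries. The p-values below therefore measure the spread among libraries, which may be technical.

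Complex I passes electrons from NADH to coenzyme Q, and complex II does the same from succinate. Complex III hands them to cytochrome c, complex IV to oxygen, and complex V (ATP synthase) uses the resulting proton gradient to make ATP. In the lens, mitochondria are found in the epithelium and in young fibre cells and are degraded when fibres mature.

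Between 13364742 and 17301168 gene counts were obtained per library. Values are given as CPM (counts scaled to library size and composition). Before the scaling for composition, 1 count stood for 0.0578 to 0.0748 CPM of the library total. After it, 1 count stood for 0.0508 CPM in mutant library 1 and 0.0825 CPM in mutant library 2. Crystallin genes, which encode the main proteins of fibre cells, took 21.8% to 37.6% of the counts in control and 19.5% to 32.2% in mutant libraries. The summed level of 20 lens fibre markers was 102816 to 260349 CPM in control and 71526 to 171465 CPM in mutant libraries. Crystallins already counted in the share above made up most of it. The sum of 10 lens epithelium markers, the latter of the 2 sums, was 2686 to 3906 CPM in control and 1164 to 2861 CPM in mutant libraries. Most of the latter sum was Cryab, itself a crystallin, and without it the epithelium markers summed to 409 to 1414 CPM in control and 445 to 882 CPM in mutant libraries. Markers of the labelled tissue were thus present in all 6 libraries. The 19 tested fibre markers all had negative values (median log2 fold change -0.84). Of these 19, 1 passed as lower, beside 1.08% called lower over all genes tested. It was Bfsp2, a filament gene of fibre cells, whose log2 fold change of -4.88 lay far from that median. Bfsp2 stood at 633, 379.8 and 254 CPM in control and 15.6, 21.1 and 6.65 CPM in mutant libraries. Markers of muscle, retina, periocular mesenchyme and cornea summed to at most 42.9 CPM each in every library, and blood vessel markers to 23.7 to 58.5 CPM. Macrophage markers summed to 1.77 to 11.5 CPM in control and 5.20 to 39.6 CPM in mutant libraries. Red blood cell markers ranged from 52.6 to 270.3 CPM over all libraries. Mutant library 1 held 711 counts of Xist, against 0 to 3 in each of the others, and so differs from them in sex.

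Expression of the oxidative phosphorylation genes was nearly level between the groups. Of the 92 genes, 86 were abundant enough to be tested, 76 of them subunits. With edgeR (adjusted p under 0.05), 1 was higher in the mutant libraries (Ndufa12, an accessory subunit of complex I), none was lower and 85 did not pass, 4 of the 86 having an unadjusted p under 0.05. Over all 12257 genes tested, 2.22% were called, 1.14% higher and 1.08% lower, and 16.2% had an unadjusted p under 0.05. With the DESeq2 and limma voom tests, which called 6.7% and 6.54% of all genes, Ndufa12 was again the 1 gene called. In whole tissue, a lower level can stem from fewer cells of a type or from less RNA per cell, and these cannot be told apart.

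The share called, 1 of 86, is near that over all genes. Log2 fold changes (mutant over control) lay between -0.51 and 0.63 with a standard deviation of 0.17 over the 86 genes, against 0.77 over all genes tested. For 83 of the 86, or 96.5%, the 95% interval lay wholly within a log2 fold change of 1 in either direction, which held for 59.8% of all genes. The exceptions were Cox6a2, Cox6b2 and Cox7a1, the scarcest tested isoforms of complex IV. For 53 genes the interval lay within 0.5. These genes were also more abundant than most, with a median of 142.8 CPM against 24.1 CPM over all genes, and a median standard error of 0.15 against 0.23. Groups were apart, with no overlap between their libraries, for 7 of the 86 genes, or 8.14%, against 22.7% of all genes.

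**Figure D1:**
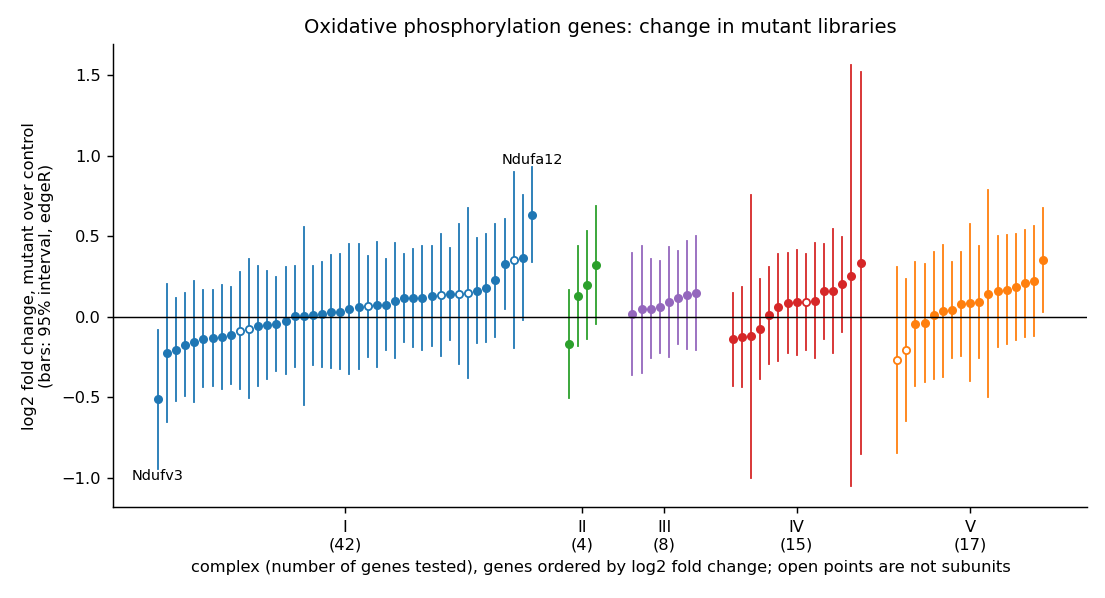
Log2 fold change of the 86 tested genes, mutant over control (vertical axis), with its 95% interval from edgeR as bars, by complex and ordered by size along the horizontal axis. Filled points are subunits and open points assembly factors or related proteins. Most points lie within 0.25 of 0, Ndufa12 stands highest at 0.63, and Ndufv3 lowest at -0.51.

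Positive values were more common than negative ones, with 62 of 86 (all genes: 50.2%) and a median of 0.07 (all genes: 0.00). This lean changed with single libraries and with the fit. Leaving out control library 3 gave 43 positive values and a median of 0.00, and leaving out mutant library 3 gave 44 and 0.01. With limma voom there were 42, and the median was -0.00. Scaling by DESeq2 size factors or without the crystallin genes left it at 62. Relative to the mean of the 6 libraries, the median gene stood at -0.00, 0.10 and -0.16 (log2 of CPM + 0.5) in control libraries 1, 2 and 3, and at -0.08, 0.03 and 0.14 in mutant libraries 1, 2 and 3. The groups overlap, with control library 3 lowest and mutant library 3 highest.

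The 5 complexes had medians close to each other. The median log2 fold change was 0.03 for complex I, with 22 of 35 genes positive. Complex II stood at 0.16 with 3 of 4 positive, and complex III at 0.08 with 8 of 8 positive. Complex IV stood at 0.09 with 10 of 14 positive, and complex V at 0.09 with 13 of 15 positive. All 5 had their lowest library median in control library 3, between -0.20 and -0.12. The highest was in mutant library 3 for complexes II (0.21), III (0.19) and V (0.25), and in control library 2 for complexes I (0.11) and IV (0.15). With limma voom the medians were -0.06, 0.16, 0.03, -0.02 and 0.03 for complexes I to V, so complexes I and IV changed sign. Without control library 3 or mutant library 3 complex I was at -0.05 and -0.02, and complex V was at -0.00 without mutant library 3. The differences between complexes are smaller than the shifts between libraries of 1 group.

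**Figure D2:**
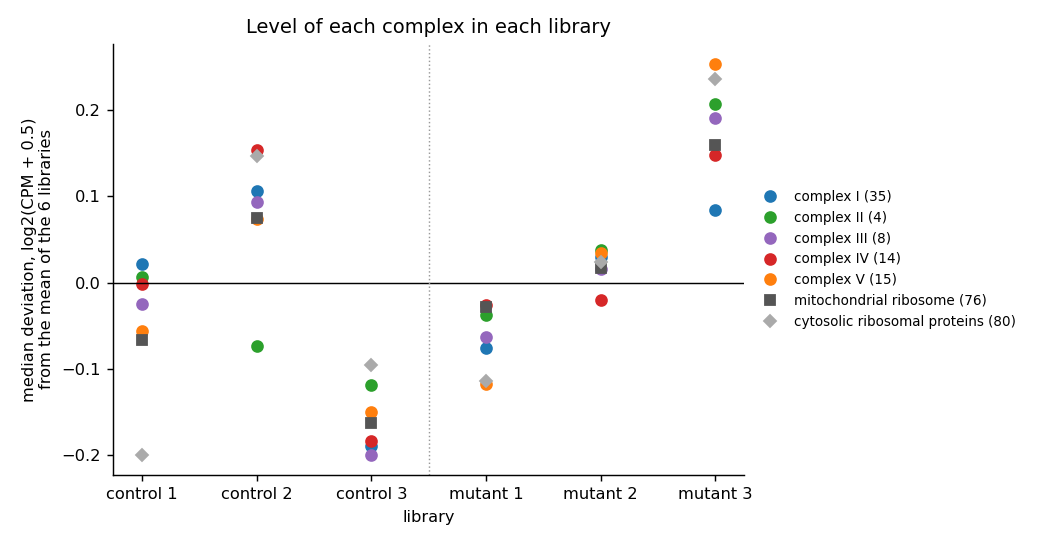
Median deviation of the genes of each complex from their mean over the 6 libraries, in log2(CPM + 0.5) (vertical axis), for each library (horizontal axis); squares and diamonds give mitochondrial and cytosolic ribosomal protein genes, and the number of genes is in brackets. Control library 3 is lowest for all 5 complexes, and control library 2 or mutant library 3 is highest.

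Ribosomal protein genes, which belong to none of the complexes, were also highest in mutant library 3. Those of the mitochondrial ribosome were lowest in control library 3, and those of the cytosolic ribosome in control library 1. The 76 genes of the mitochondrial ribosome stood at -0.07, 0.07 and -0.16 in control libraries 1 to 3 and at -0.03, 0.02 and 0.16 in mutant libraries 1 to 3. The 80 tested genes of the cytosolic ribosome stood at -0.20, 0.15 and -0.10, and at -0.11, 0.02 and 0.24. Their part in the lean of the oxidative phosphorylation genes was not tested. As a share of all counts, the 92 genes took 1.41%, 1.67% and 1.67% in control and 1.81%, 1.57% and 2.10% in mutant libraries. With crystallin counts left out, the shares were 2.26%, 2.39% and 2.14% in control and 2.31%, 2.31% and 2.61% in mutant libraries. The mean was then 2.26% ± 0.128 (SD, n = 3) against 2.41% ± 0.172 (SD, n = 3), and the groups overlap.

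Within complex I, the 7 core subunits carry the flavin and iron-sulphur clusters that move electrons. Their median was 0.10, and none passed the test. Ndufv1, the NADH-binding subunit, stood at 129, 142 and 117 CPM in control and at 137, 137 and 180.5 CPM in mutant libraries. These groups overlap, at 0.22 ± 0.15 (SE; adjusted p = 0.519). Ndufs1, the largest core subunit, had 137, 106 and 117 CPM in control and 122, 125 and 115 CPM in mutant libraries. It was at the same level in both groups (0.01 ± 0.13, SE).

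The accessory subunits surround this core, and 28 of 29 were tested, with a median of 0.02. They held both ends of the range of changes. Ndufa12, an accessory subunit joined to the arm of complex I that reaches into the matrix, stood at 60.7, 63.9 and 57.8 CPM in control libraries and at 84.2, 101 and 97.6 CPM in mutant libraries. The lowest mutant library lay above the highest control library by more than the spread within either group. Control libraries averaged 60.8 CPM ± 3.05 (SD, n = 3), and mutant libraries averaged 94.4 CPM ± 8.97 (SD, n = 3). The log2 fold change of 0.63 ± 0.13 (SE) passed the threshold narrowly (edgeR adjusted p = 0.0449) and had a 95% interval of 0.34 to 0.93. The call was lost whichever of the 6 libraries was left out, with log2 fold changes of 0.58 to 0.71 and adjusted p between 0.0650 and 0.162. In the authors' deposited table the log2 fold change of Ndufa12 is 0.63 with an adjusted p of 0.00502, and it is the 1 gene called there among 87 of the 92 with an adjusted p (6.11% of all genes in that table).

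Ndufa12 lies on chromosome 10, where 16 of 559 tested genes were called, or 2.86%. None of the 20 tested genes nearest to it in gene order was called. At the share of the chromosome, few or no calls would be found among 20 genes. Of the 50-base words in its transcripts, 26.2% also occur in the gene model Gm15920, so reads may be divided between them, depending on the counter. Ndufaf2, an assembly factor whose protein resembles that of Ndufa12 and holds its place until Ndufa12 joins, stood at 10.2, 15.98 and 14.97 CPM in control and at 18.5, 14.51 and 19.4 CPM in mutant libraries. These groups overlap (0.35 ± 0.24, SE; adjusted p = 0.516).

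Promoters of nuclear oxidative phosphorylation genes are known to hold sites for NRF1, a regulator of mitochondrial genes, and for ETS proteins such as GABP. The 250 bases upstream of the start were searched on both strands for the NRF1 site (GCGCA, any base, then GCGC) and the YY1 site AAGATGGC. The ETS site CCGGAAGT and its shorter core CGGAAG, which overlaps it, were searched for in the same way. The core was added after sequences were seen. RefSeq windows (GRCm38.p6) were available for 73 of the 92 genes, 78 windows in all. Ndufa12 is printed because it was called, Atp5h because it holds both the NRF1 and the ETS letters, and Ndufs6 as an example of an NRF1 match close to the start. Capitals mark matches on either strand, and the gene reads from left to right.
Ndufa12, chr10:94198785-94199034, + strand: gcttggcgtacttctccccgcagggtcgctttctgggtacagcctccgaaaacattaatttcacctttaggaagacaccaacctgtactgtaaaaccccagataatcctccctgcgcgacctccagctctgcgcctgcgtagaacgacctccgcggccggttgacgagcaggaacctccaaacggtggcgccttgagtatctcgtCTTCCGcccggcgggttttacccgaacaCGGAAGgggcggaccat
Atp5h, chr11:115419920-115420169, - strand: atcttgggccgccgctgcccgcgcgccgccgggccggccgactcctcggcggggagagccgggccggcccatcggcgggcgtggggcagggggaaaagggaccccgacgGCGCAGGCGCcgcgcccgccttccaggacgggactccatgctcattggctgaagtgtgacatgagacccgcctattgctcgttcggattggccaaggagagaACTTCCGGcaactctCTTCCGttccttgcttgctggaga
Ndufs6, chr13:73328483-73328732, - strand: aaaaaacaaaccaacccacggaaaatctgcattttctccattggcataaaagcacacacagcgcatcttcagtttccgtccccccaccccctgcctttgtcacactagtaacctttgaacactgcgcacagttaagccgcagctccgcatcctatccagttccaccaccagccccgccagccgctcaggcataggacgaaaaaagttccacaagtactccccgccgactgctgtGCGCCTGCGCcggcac

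Ndufa12 holds the ETS core at 2 places, 40 and 12 bases upstream of the start, and neither the longer ETS site nor the NRF1 site. Atp5h has the NRF1 site 132 bases and the ETS site 32 bases upstream, and Ndufs6 has the NRF1 site 7 bases upstream. The NRF1 letters were found in 15 of the 78 windows (19.2%), against 8.15% of the windows of tested genes and 5.18% of those of all protein-coding genes. Counting assembly factors and related genes with their complex, complex I had them in 8 of 40 windows, complex II in 2 of 3, complex III in 0 of 5, complex IV in 1 of 14 and complex V in 4 of 16. The ETS site was found in 3 windows (3.85%), against 5.86% for tested and 3.79% for all genes. For the core the shares were 33.3%, 24.9% and 17.1%, and for YY1 they were 1.28%, 2.01% and 1.49%. A match describes these letters and not binding. Atp5h stood at 225, 231 and 184 CPM in control and at 200.3, 218 and 262 CPM in mutant libraries, with overlap between the groups (0.09 ± 0.15, SE). Ndufs6 stood at 97.7, 129 and 90.9 CPM in control and at 104, 96.2 and 129 CPM in mutant libraries (0.05 ± 0.18, SE).

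At the other end of the accessory subunits was Ndufv3, which belongs to the NADH-binding module. It stood at 163, 150 and 108 CPM in control and at 89.4, 117 and 88.5 CPM in mutant libraries. Control library 3 lay below mutant library 2, so the groups overlap, and the log2 fold change of -0.51 ± 0.19 (SE) did not pass (adjusted p = 0.228). In both groups the libraries with a larger crystallin share had more Ndufv3: the crystallin shares of the same libraries were 37.6%, 30.2% and 21.8% in control and 21.7%, 32.2% and 19.5% in mutant. With the crystallin share as a covariate its value was -0.31 (adjusted p = 0.190). Such a shift was not particular to Ndufv3: Sdhb moved from -0.17 to -0.06, while Cox5b moved from -0.14 to -0.15. The part of the crystallin share in these values was not tested. After Ndufv3, the next lowest of complex I was Ndufa3 at -0.23 ± 0.19 (SE), from 130, 101 and 77.4 CPM in control to 92.0, 81.5 and 89.6 CPM in mutant libraries. These groups overlap too. Ndufb8, an accessory subunit of the membrane arm, stood at 327, 328 and 261 CPM in control and at 342, 361 and 478 CPM in mutant libraries. Its groups do not overlap, and mutant library 3 is far above the rest (0.37 ± 0.17, SE; adjusted p = 0.333).

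**Figure D3:**
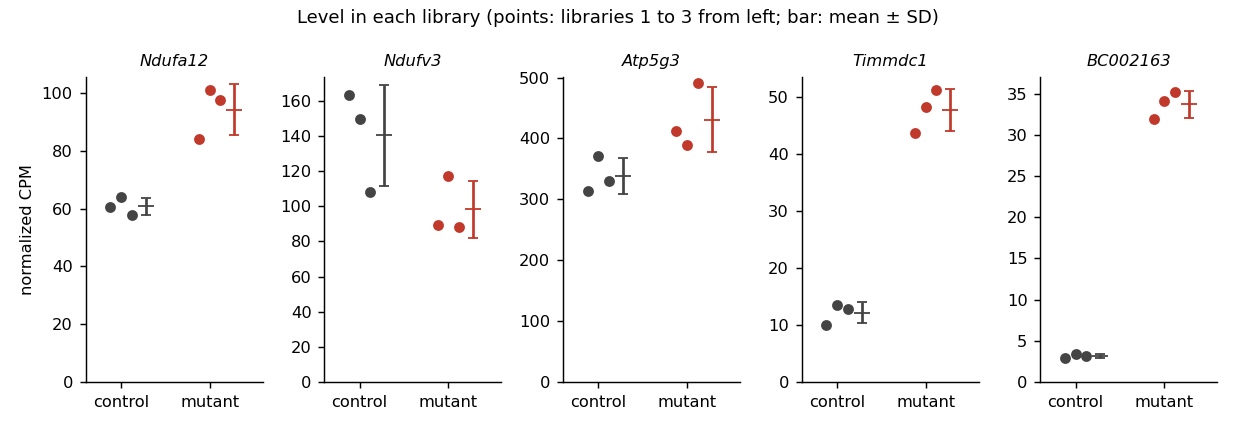
Normalized CPM (vertical axis, from 0) of 5 genes in each control (grey) and mutant (red) library, with the mean ± SD of 3 libraries as bars. Ndufv3 overlaps between the groups and the other 4 genes do not; Timmdc1 and BC002163, which are not among the 92 genes, have the widest gaps relative to their level.

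Ndufs5, another accessory subunit, is listed at 0 in all 6 libraries. If its reads were assigned to it, a count of 0 would allow up to 0.173 to 0.224 CPM of the library total (3 counts), which is no limit on its RNA where reads went to another gene model. A gene model that resembles it, BC002163, did have counts. GENCODE release 21 calls BC002163 a processed pseudogene, and 72.6% of its 50-base words are also in Ndufs5, while 31.1% of those of Ndufs5 are in BC002163. It had 39, 55 and 57 counts in control and 629, 414 and 645 counts in mutant libraries. That is 2.92, 3.34 and 3.16 CPM against 31.9, 34.1 and 35.2 CPM, and no mutant library comes near a control library. In edgeR the log2 fold change of BC002163 was 3.42 ± 0.19 (SE, adjusted p = 0.000199), and the call held in all 14 alternatives, between 3.35 and 3.47. BC002163 was chosen after its values were seen. Which of the 2 genes these reads came from cannot be told apart from the counts.

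The 7 assembly factors named Ndufaf1 to Ndufaf7 help to build complex I without staying in it, and none passed (median 0.14). Of 35 tested assembly factors with other names, 1 was higher in mutant libraries and none lower, near the 2.22% called over all genes, with a median of -0.02. That gene was Timmdc1, which helps to build the membrane arm of complex I. It stood at 10.1, 13.6 and 12.7 CPM in control and at 43.8, 48.2 and 51.2 CPM in mutant libraries. Each mutant library was more than 3 times as high as any control library. In edgeR its difference on the log2 scale was 1.97 ± 0.18 (SE, adjusted p = 0.00117), and the call held in all 14 alternatives, between 1.86 and 2.06. Timmdc1 and BC002163 are both on chromosome 16, with 8 tested genes between them, none of them called. Etv5, which is floxed in the mutants, is on the same chromosome, with 82 tested genes, 1 of them called, between it and Timmdc1. On chromosome 16 as a whole 7 of 372 tested genes were called, or 1.88%. Whether a chromosome segment that came with an allele contributes was not tested.

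Complex II is also the enzyme of the tricarboxylic acid cycle that oxidizes succinate, and none of its 4 genes passed. Sdha, the flavoprotein, stood at 427, 332 and 354 CPM in control and at 401, 412 and 405 CPM in mutant libraries, within the control range (0.13 ± 0.14, SE). Sdhb, the iron-sulphur subunit, stood at 448, 408 and 338 CPM in control and at 323, 380 and 359 CPM in mutant libraries (-0.17 ± 0.15, SE). The catalytic subunits thus leaned in opposite directions, each with overlapping groups. The membrane anchors Sdhc and Sdhd had the higher values of the complex. Sdhc stood at 52.8, 59.0 and 58.3 CPM in control and at 66.7, 60.0 and 85.9 CPM in mutant libraries, without overlap but with mutant library 2 close to the controls (0.32 ± 0.16, SE; adjusted p = 0.368). Sdhd stood at 178, 187 and 182 CPM in control and at 178, 202 and 248 CPM in mutant libraries (0.20 ± 0.15, SE).

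Complex III had the narrowest range, from 0.02 to 0.15 over 8 genes, and none of its genes passed or had groups without overlap. Uqcrc1, a core protein that faces the matrix, stood at 708, 592 and 497 CPM in control and at 540, 618 and 661 CPM in mutant libraries. Its mutant values lie within the control range (0.02 ± 0.17, SE). The other core protein, Uqcrc2, had 228, 199 and 186 CPM in control and 192, 254 and 207 CPM in mutant libraries (0.09 ± 0.15, SE). Uqcrfs1, the Rieske iron-sulphur protein, had 209, 221 and 195 CPM in control and 206, 225 and 248 CPM in mutant libraries (0.12 ± 0.13, SE). Again the groups overlap. Uqcrh and Uqcrq were highest in the complex, at 0.15 ± 0.16 and 0.13 ± 0.15 (SE), and Uqcr10 was next to lowest, at 0.04 ± 0.17 (SE).

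In complex IV, 11 subunits found in most tissues were tested, and none passed. Cox4i1, which binds ATP and adjusts the enzyme to it, stood at 424, 433 and 355 CPM in control and at 358, 469 and 470 CPM in mutant libraries (0.10 ± 0.16, SE). Cox5a stood at 152, 144 and 125 CPM in control and at 157, 153 and 175 CPM in mutant libraries, the 1 gene of the complex whose groups do not overlap (0.20 ± 0.13, SE; adjusted p = 0.488). Cox5b, which carries a zinc ion, had 125, 145 and 124 CPM in control and 113, 117 and 127 CPM in mutant libraries (-0.14 ± 0.13, SE). Cox6a1 had the next lowest value, -0.13 ± 0.14 (SE). Ndufa4, once assigned to complex I, stood at 217, 279 and 217 CPM in control and at 243, 235 and 317 CPM in mutant libraries (0.16 ± 0.17, SE). Cox8a was at a like value, 0.16 ± 0.13 (SE), and Cox6b1 and Cox7a2 were at 0.01 ± 0.13 and 0.09 ± 0.14 (SE). Cox7a2l, which joins complexes III and IV into larger assemblies, was at 0.09 ± 0.13 (SE).

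Several subunits of complex IV have a second isoform that is made in particular tissues, and in the lens the common isoform held nearly all counts. Of the counts of each pair over the 6 libraries, the heart and muscle isoforms held 1.91% (Cox6a2, against Cox6a1) and 0.924% (Cox7a1, against Cox7a2), and Cox8b was at 0 in all libraries. The testis isoforms held 4.30% (Cox6b2, against Cox6b1) and 0.0928% (Cox7b2, against Cox7b), and Cox8c had 1 count in all. Cox4i2, the lung isoform that responds to low oxygen, held 0.0961%, and Ndufa4l2, a gene switched on by low oxygen, had 10 counts against 24866 of Ndufa4. These are counts without regard to transcript length, and no intervals are given for them. An interval would cover at most the counting of reads and not of molecules, since the amplified reads carry no molecular identifiers.

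None of the 3 testable isoforms passed. Cox6a2 stood at 4.78, 5.53 and 3.21 CPM in control and at 4.37, 10.1 and 1.85 CPM in mutant libraries. Mutant library 2 was highest and mutant library 3 lowest, so the mutant libraries span all controls (0.25 ± 0.57, SE). Cox6b2 had 6.05, 10.9 and 10.03 CPM in control and 12.2, 4.70 and 7.85 CPM in mutant libraries (-0.12 ± 0.39, SE). Cox7a1 had 1.94, 0.972 and 1.27 CPM in control and 2.28, 1.65 and 1.31 CPM in mutant libraries (0.33 ± 0.52, SE). Muscle markers summed to 29.3 to 34.2 CPM in control and 20.4 to 26.2 CPM in mutant libraries, and 2 of the 10 were at 0 in all libraries. Most of this sum was Tnni1, which passed as lower in mutant libraries; the other 9 summed to 0.222 to 5.47 CPM in control and 4.12 to 11.4 CPM in mutant libraries. Their part in the levels of Cox6a2 and Cox7a1 was not tested.

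In complex V, the F1 head makes ATP and its 5 genes had a median of 0.16. Atp5b, the catalytic beta subunit, stood at 2779, 2304 and 2117 CPM in control and at 2215, 2576 and 2585 CPM in mutant libraries. Its mutant values lie within the control range (0.03 ± 0.18, SE). Atp5a1, the alpha subunit, was steady in control libraries at 824, 825 and 814 CPM and varied more in mutant libraries, at 796, 881 and 1070 CPM (0.16 ± 0.15, SE). Atp5c1, the gamma subunit that turns within the head, had 336, 410 and 341 CPM in control and 372, 415 and 468 CPM in mutant libraries (0.21 ± 0.15, SE). Atp5o, of the outer stalk, had 269, 265 and 228 CPM in control and 256, 285 and 347 CPM in mutant libraries (0.22 ± 0.15, SE). All 4 had overlapping groups. Atp5s and Atp5sl, which carry ATP synthase names but encode no subunit of it, were at -0.27 ± 0.25 and -0.21 ± 0.19 (SE). Atp5sl had 13.5, 14.9 and 12.97 CPM in control and 12.1, 11.7 and 12.1 CPM in mutant libraries, a small gap without overlap.

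Subunit c forms the ring that turns in the membrane, and 3 genes encode the same mature protein with different targeting sequences. Atp5g3 stood at 313, 371 and 331 CPM in control and at 412, 390 and 492 CPM in mutant libraries. All mutant libraries lay above the controls, and the log2 fold change of 0.35 ± 0.14 (SE) did not pass (adjusted p = 0.273). Atp5g1 stood at 212, 186 and 143 CPM in control and at 158, 182 and 203 CPM in mutant libraries (0.01 ± 0.17, SE). Atp5g2 had 24.5, 39.5 and 34.8 CPM in control and 29.4, 36.0 and 39.6 CPM in mutant libraries (0.09 ± 0.21, SE). Of the counts of the 3 genes together, Atp5g3 held 57.0%, 62.2% and 65.0% in control and 68.7%, 64.1% and 66.9% in mutant libraries. Control library 3 lay above mutant library 2, so the shares overlap, with means of 61.4% ± 4.06 (SD, n = 3) and 66.6% ± 2.33 (SD, n = 3). These are counts without regard to transcript length, and most of the 50-base words of Atp5g2 (87.4%) occur in other gene models.

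Levels of different genes were compared per kb of transcript, in the control libraries. Ndufa1, a small complex I subunit encoded on the X chromosome, was highest at 2883 CPM per kb ± 437 (SD, n = 3), followed by Atp5b at 1253 CPM per kb ± 178 (SD, n = 3). Next were Cox4i1 at 528 ± 55.8, Uqcr11 at 508 ± 48.8 and Atp5g3 at 468 ± 41.0 CPM per kb (SD, n = 3), whose order is within their spread. Of the subunits found in most tissues with counts, the lowest were Ndufab1 at 7.86 ± 0.725, Ndufb4 at 10.2 ± 1.67 and Atp5l at 10.5 ± 1.14 CPM per kb (SD, n = 3), followed by Sdhc at 17.9 ± 1.06 and Ndufb2 at 17.98 ± 3.08. In that order, the transcripts used were 3479, 971, 544, 3171 and 4371 bases long. The control means of these genes, not divided by length, were 27.3, 9.93, 5.70, 56.7 and 78.6 CPM. Of the 50-base words of these genes, 12.3%, 37.0%, 84.8%, 0.0961% and 5.39% occur in other gene models. The parts of sharing and of the transcript chosen in these levels were not tested. Of the 91 genes with a transcript in GENCODE, 17 share more than 20% of their words with other models. Ndufa1 did not differ past the threshold in mutant libraries: it stood at 1408, 1167 and 1049 CPM in control and at 1056, 1013 and 1187 CPM in mutant libraries, with overlap (-0.15 ± 0.16, SE).

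**Figure D4:**
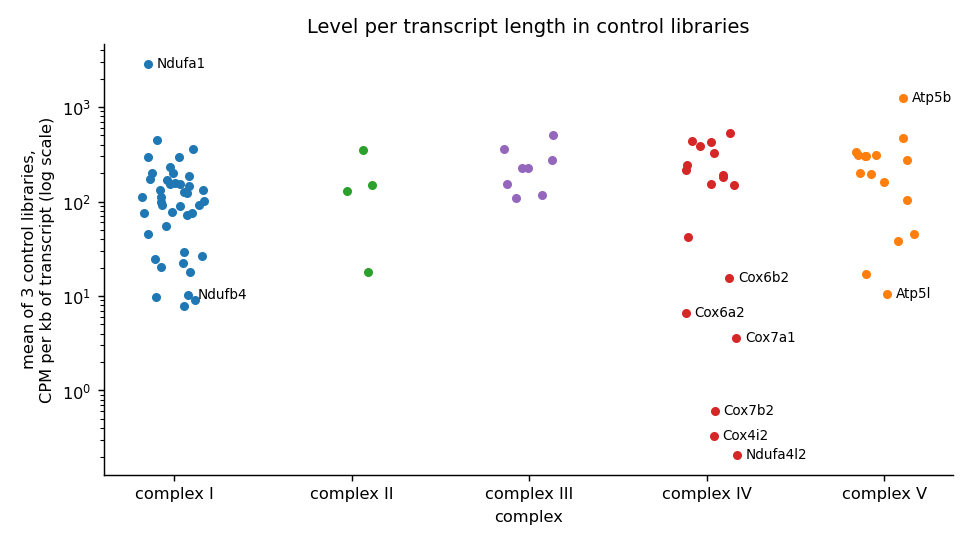
Mean of the 3 control libraries in CPM per kb of transcript (vertical axis, log scale) for each gene with more than 0.1 CPM per kb, by complex (horizontal axis, points spread sideways for legibility). Ndufa1 (2883) and Atp5b (1253) are highest, and the 5 lowest points are tissue isoforms of complex IV.

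Other mitochondrial and metabolic lists held no called gene beyond Timmdc1. Of 18 tested genes of the tricarboxylic acid cycle, 15 of coenzyme Q synthesis and electron carriers, 18 regulators of mitochondrial genes, 76 of the mitochondrial ribosome, 35 of import and cristae, 11 of mitochondrial removal and 18 of glycolysis, none passed in either direction. The 80 tested genes of cytosolic ribosomal proteins had none either. With 2.22% of all genes called, few or no calls would be found in lists of these sizes at the share of all genes. Their medians were 0.09, 0.07, 0.02, 0.12, 0.15, 0.11, 0.14 and 0.11 in that order, beside 0.07 for the oxidative phosphorylation genes and 0.00 for all genes tested.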

How the data were processed

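For each of 6 libraries the authors deposited whole-number counts by gene symbol, not normalized, and also 1 table joining them. Their deposited comparison lists, by gene, a mean normalized signal, a log2 fold change, a score and a p-value before and after adjustment. Tools in the submitters' processing notes are TopHat, Cufflinks, DESeq and bcl2fastq 1.8.4, with the build mm9 and no roles. Which program counted reads, and with which annotation and strand setting, is not given in the sources used here. Overlapping genes and near-identical copies may therefore share counts, and 32 of the 92 genes overlap another on the same or the opposite strand. Per the labels' protocols, cDNA was made and amplified with a SMART-seq v4 kit and Nextera XT libraries, without molecular identifiers.

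Counts were tested with edgeR 4.0.16 in R 4.3.3 (filterByExpr with a minimum count of 10 and a total of 15, TMM scaling, robust quasi-likelihood F test, no covariates), with limma 3.58.1 and DESeq2 1.42.0 as other tests. P-values were adjusted by Benjamini-Hochberg over all 12257 genes tested, at 0.05. Standard errors and 95% intervals follow from the F statistic. CPM were computed on TMM-scaled library sizes. The procedure was also run on simulated counts with known changes. These were drawn without the shifts in crystallin share between libraries, so the run does not check the effect of such shifts. Transcript lengths, shared words of 50 bases, exon overlaps and gene order come from GENCODE release 21, and promoter windows from RefSeq GRCm38.p6. Both are of another build than that of the counts.

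Genes were named by rule: those past the threshold, the 2 highest and 2 lowest of each complex, catalytic and structural landmarks, complex IV isoforms, and up to 4 called genes of each related list. Atp5h, Ndufs6, Ndufab1, Ndufb2, Ndufb4, Atp5l, Uqcr11, Ndufa1, Ndufaf2 and BC002163 were added after values or sequences were seen. The values of 1 gene are not reported here. The genes and lists were chosen with earlier results of these data known. No library was a copy of another of its own group by its counts (chi-square over genes), which does not show that the libraries came from separate embryos.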

Additional observations from a re-analysis of the deposited data

How the results depend on the processing

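The 14 alternatives were 2 other scalings, 2 other filters, 2 other tests, the replicate block, the crystallin share as a covariate, and the omission of each library. The number of genes called of all tested was 821 with DESeq2, 801 with limma voom, 798 with the covariate and 122 with the replicate number as a block, and 91 to 479 when a library was left out. Of the oxidative phosphorylation genes, 1 was called higher in all but the block, where the number was 0 (Ndufa12 at an adjusted p of 0.138), and the 6 fits without 1 library, where it was 0. None was called lower in any. Same-numbered libraries correlated at -0.28, -0.15 and 0.22 in their deviations from the group means, so the numbers do not pair them; of the 6 libraries, mutant library 3 alone correlated best with its own number.

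The median of all 86 genes ranged from 0.00 to 0.14 when a library was left out and from -0.00 to 0.09 otherwise; that of complex IV moved to -0.023 with limma voom. Of the 86 genes, 62 were positive in the main fit and 42 with limma voom. The sign changes that follow are those of the genes named by rule only. With limma voom they were Uqcrc1 (-0.0045), Cox6a2 (-0.32), Cox4i1 (-0.025), Atp5g1 (-0.043), Atp5g2 (-0.11) and Cox6b1 (-0.059). With the block it was Cox6a2 (-0.0032), and with the covariate Uqcr10 (-0.0080). When a library was left out they were Uqcrc1 (-0.10 to 0.15), Uqcr10 (-0.077 to 0.18), Cox6a2 (-0.53 to 0.67), Ndufs1 (-0.073 to 0.11), Uqcrc2 (-0.035 to 0.18), Atp5b (-0.049 to 0.15), Atp5g1 (-0.13 to 0.14), Atp5g2 (-0.086 to 0.24), Cox6b2 (-0.52 to 0.15) and Cox6b1 (-0.076 to 0.067). The cause was not tested. Depth and spread limit what could be seen: the median standard error of these genes was 0.15 on the log2 scale. Cox6a2, Cox6b2 and Cox7a1 are the least precise, and a gene listed at 0 has no fold change.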
